A study of Mus musculus with 53 samples.

Results

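The genes described here encode the cofactors that TEAD transcription factors bind: Yap1 (YAP), Wwtr1 (TAZ), Vgll2, Vgll3 and Vgll4. They were found by gene symbol, and each of the 5 has an entry among the 55573 genes of the postnatal day 2 (P2) bulk RNA-seq tables and among the 57010 genes of the postnatal day 7 (P7) single-cell matrices of mouse cerebellum. Their positions in GRCm38.p6 are chr9:7931999-8004638 for Yap1 (ENSMUSG00000053110.13), chr3:57455644-57575910 for Wwtr1 (ENSMUSG00000027803.14), chr10:52022502-52028471 for Vgll2 (ENSMUSG00000049641.14), chr16:65815189-65866368 for Vgll3 (ENSMUSG00000091243.2) and chr6:114860621-114970007 for Vgll4 (ENSMUSG00000030315.15).

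TEAD proteins bind DNA but need a partner to change transcription. YAP and TAZ are coactivators that the Hippo kinase cascade holds in the cytoplasm by phosphorylation, and in the brain they are best known in glia, in dividing progenitors and in vessels. Vestigial-like proteins bind TEAD through their own domains: VGLL2 and VGLL3 are associated with skeletal muscle, and VGLL4 competes with YAP and TAZ for TEAD.

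Mutants carried Atoh1Cre, a recombinase active in the cerebellar granule cell lineage, with either Insm1fl/fl or both Tead1fl/fl and Tead2fl/fl. INSM1 is a zinc finger repressor of differentiating neurons. Controls carried the same floxed alleles without Cre, so every library came from floxed mice and the recombinase was present in mutants alone. The P2 data were 15 libraries of stranded total RNA from whole cerebella of individual pups. For Insm1 there were 4 controls and 4 mutants, and for Tead1/2 3 controls and 4 mutants. The Insm1 libraries are labelled batch 2 and the Tead1/2 libraries batch 3, so alleles and batches cannot be told apart, and each mutant was compared with controls of its own batch. The P7 data were 10 single-cell libraries, 1 cerebellum each, with 2 controls and 3 mutants per allele. Within each P7 group, number 1 held all lobules and the other libraries were dissected without lobules IX and X. The title of the series names the repression of muscle fate in neural cells. For these 5 genes the comparisons ask how the supply of TEAD partners differed when Insm1, or Tead1 and Tead2, were deleted.

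The promoter stretches that carry the letters GGAATG, the core that TEAD proteins recognise, are shown because a cofactor gene could itself lie near such letters. Sequences are from RefSeq, build GRCm38.p6, and promoters of all 5 genes were matched. Each is written 5′ to 3′ on the strand of the gene, and capitals mark the match to GGAATG or, on the opposite strand, CATTCC. For Vgll2, which has no such match, capitals mark an E-box (CANNTG, the general form of the letters that basic helix-loop-helix factors bind). Which of these factors prefer the form shown, CACGTG, was not examined.
Yap1, minus strand of chr9:8004710-8004759: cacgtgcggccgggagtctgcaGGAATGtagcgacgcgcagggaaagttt
Wwtr1, minus strand of chr3:57576019-57576068: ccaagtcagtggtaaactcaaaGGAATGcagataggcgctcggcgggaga
Vgll4, minus strand of chr6:114969258-114969307: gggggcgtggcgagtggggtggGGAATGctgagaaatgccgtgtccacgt
Vgll3, plus strand of chr16:65815104-65815153: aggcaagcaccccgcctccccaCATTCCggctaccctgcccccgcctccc
Vgll2, plus strand of chr10:52022252-52022301: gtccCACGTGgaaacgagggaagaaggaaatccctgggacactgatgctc

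Distances are from the annotated start that each promoter entry uses. The GGAATG letters began 141 bases before that start for Yap1, 136 or 170 bases before the 2 starts of Wwtr1, 82 bases before that of Vgll4 and 63 bases before that of Vgll3. The starts used for Yap1 and Vgll4 lie inside the gene spans given above. The whole Vgll4 stretch shown lies inside its span, so it does not precede the outermost start of that gene. Both strands of the 250 bases before each start were searched. A match was found for 4 of 5 members, and 12.64% of all 32851 promoters, or 14.36% of 27025 genes, held one. CANNTG was found for 3 of 5 members, Yap1, Vgll2 (246 bases before the start) and Vgll4, and in 66.22% of all promoters. A match describes letters in this window, and no binding data were analysed here.

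Library totals at P2 ran from 28067000 to 64519000 expected counts, and levels are given as CPM, counts scaled to a common library total (at P2 with TMM factors, edgeR's scaling between libraries). Insm1 itself read 30.8, 31.4, 56.5 and 71.5 CPM in its P2 controls and 10.6, 8.39, 16.1 and 15.1 in its mutants. At P2 neither Tead1 nor Tead2 passed the test at the level of the whole gene with all libraries; without Tead1/2 mutant 4, described next, Tead2 was called at −0.35 (edgeR adjusted p = 0.0417). The library labelled Tead1/2 mutant 4 stood apart: its summed level of 24 skeletal muscle markers was 48.2 CPM, within the range of the controls, against 214 to 288 CPM in mutants 1 to 3. P2 results for Tead1/2 are therefore given with all libraries and without that one. At P7, 76640 cells were kept (4587 to 10281 in each library), and the median depth of a library's cells was 6657 to 9793 UMIs (unique molecules counted), and no barcode occurred in 2 libraries. Over all kept cells Insm1 fell in its mutants by 2.63 on the log2 scale, and Tead2 fell in the Tead1/2 mutants by 1.95. Tead1 summed over cells was at 609 to 623 CPM in the Tead1/2 controls and 1176 to 1375 in the mutants, and whole-gene counts cannot show whether a transcript kept the deleted part. The controls of both alleles differed as well. Mean Tead2 was 23.6 CPM in Tead1/2 and 86.6 in Insm1 controls at P2, and 30.1 and 61.7 at P7. Mean Tead1 was 44.7 and 87.2 at P2, and 616 and 562 at P7. The cause was not tested. All replicate tests below are edgeR quasi-likelihood tests with Benjamini-Hochberg adjustment over every gene in the fit, with calls made below an adjusted p of 0.05.

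In P2 cerebella of Insm1 mutants the levels of YAP, TAZ, Vgll3 and Vgll4 transcripts did not pass the test, while Vgll2, absent from all 4 controls, appeared in all 4 mutants. The Insm1 controls had 40.0, 35.6, 31.9 and 35.1 CPM of Yap1 and the mutants 32.6, 39.4, 38.5 and 41.2 CPM. The values overlapped, and the log2 difference was 0.10 ± 0.09 (SE; 95% interval −0.08 to 0.28; edgeR adjusted p = 0.771). Wwtr1 read 35.9, 37.4, 37.3 and 36.9 CPM in controls against 40.7, 38.9, 36.9 and 35.6 in mutants, again with overlap, and its log2 difference was 0.06 (95% interval −0.06 to 0.18). For Vgll4, the YAP competitor, controls lay at 47.3 to 55.2 CPM and mutants at 48.8 to 55.03, with a log2 difference of 0.03 (95% interval −0.10 to 0.17). Vgll3 was near 0.6 CPM in both groups, 0.506 to 0.805 in controls and 0.567 to 0.820 in mutants, and its interval was wide (−0.36 to 0.52 on the log2 scale). Of the 4 members tested, 0 were called in the Insm1 comparison by edgeR, where 135 genes or 0.689% of 19582 were called. Of these 4, 0 had an unadjusted p under 0.05, where 1763 of all genes tested did. Counts of 0 among 4 are near those shares and say nothing about the members. The 24 skeletal muscle markers summed to 42.0 to 69.5 CPM in these controls and 203 to 325 in the mutants, and the granule progenitor markers to 1752 to 1953 against 1400 to 1589. Endothelial markers were lower in the mutants without overlap (152 to 202 against 207 to 227). Their part in the values of the cofactor genes was not tested.

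Vgll2 gave 0 counts in each of the 4 Insm1 controls and 14, 15, 5 and 7 counts in the 4 mutants. The groups did not overlap, and pooled over libraries the mutants were at least 14.4-fold higher than a floor of 3 counts over the controls. An exact two-sided permutation test gave p = 0.0286, the smallest that 70 splits allow. This test was chosen after the counts were seen, because the low-count filter of edgeR had left Vgll2 out. DESeq2, which kept it, called it at an adjusted p of 0.00025, and was the tool by which 1 member was called, where it called 308 genes or 1.24% of 24846. In the Tead1/2 libraries Vgll2 gave 1, 2 and 0 counts in controls and 7, 25, 13 and 0 in mutants. The mutant at 0 was number 4, and mutants 1 to 3 were all above the controls. The exact permutation p was 0.2 with all libraries and 0.1 without mutant 4, which is the smallest those 6 libraries can give.

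**Figure D1:**
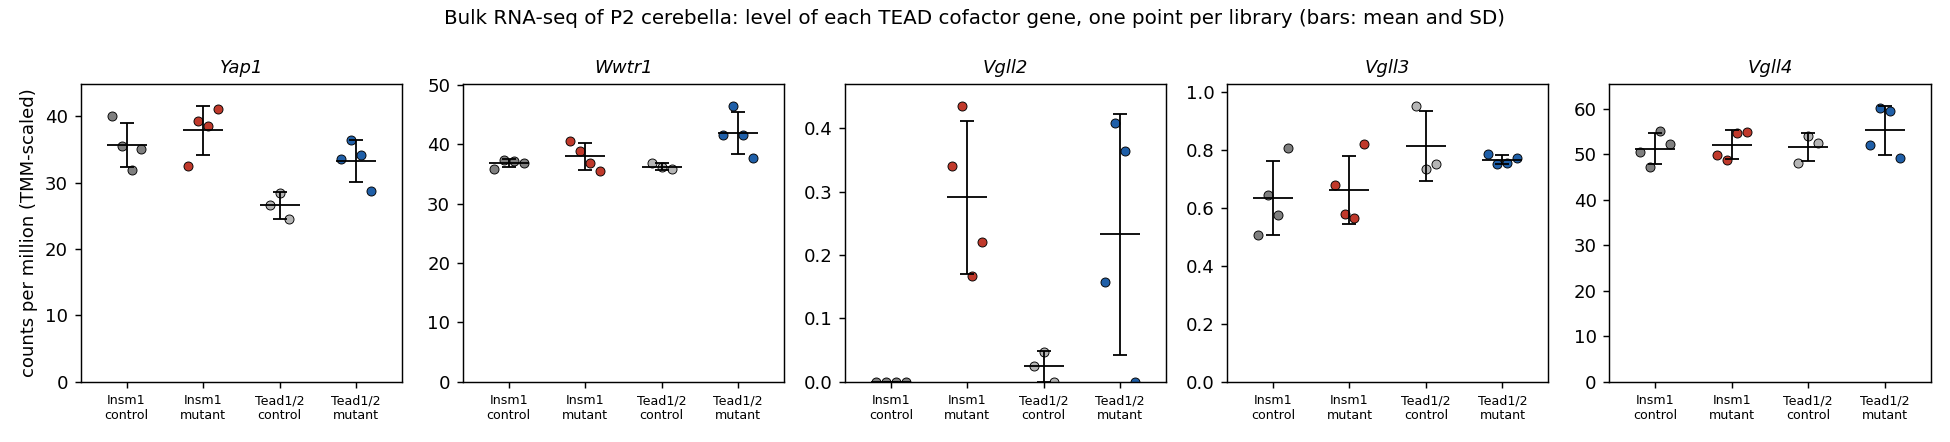
TMM-scaled CPM (y axis) of the 5 cofactor genes in 15 P2 libraries by group (x axis); each point is a library, and horizontal lines and bars show the mean and SD. Vgll2 is at 0 in the 4 Insm1 controls and in 1 of 4 Tead1/2 mutants, and Yap1 in 3 of 4 Tead1/2 mutants is at 33.6 to 36.4 while the fourth, at 28.8, is close to the highest control.

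In the Tead1/2 comparison at P2 both coactivators read slightly higher in the mutants, and neither was called by edgeR with all 7 libraries. Yap1 was called without mutant 4, and by DESeq2 with all libraries (0.30, adjusted p = 0.0223). Yap1 was at 26.7, 28.5 and 24.6 CPM in controls and at 33.6, 36.4, 34.2 and 28.8 CPM in mutants. All 4 mutants lay above all 3 controls, and the mutant nearest to them was number 4. The log2 difference was 0.29 ± 0.08 (unadjusted p = 0.00373, edgeR adjusted p = 0.11), and without mutant 4 it was 0.35 ± 0.06 and was called (edgeR adjusted p = 0.0152). Wwtr1 was at 36.9, 36.1 and 35.9 CPM in controls and at 41.7, 46.5, 41.7 and 37.8 in mutants, again without overlap and with mutant 4 the lowest. Its log2 difference was 0.18 ± 0.07 (edgeR adjusted p = 0.181), and 0.22 ± 0.06 without mutant 4 (edgeR adjusted p = 0.066). Vgll3 (0.735 to 0.952 CPM in controls, 0.751 to 0.785 in mutants) and Vgll4 (48.1 to 54.0 and 49.3 to 60.1 CPM) overlapped between groups, with log2 differences of −0.12 and 0.07, and −0.12 and 0.12 without mutant 4 (edgeR adjusted p = 0.792 and 0.377). Of the 4 members tested, 0 were called by edgeR and 2 had an unadjusted p under 0.05, where 0 of 20247 genes, 0%, were called, 4052 had an unadjusted p under 0.05, and DESeq2 called 1005. Without mutant 4 the one member called stood against 646 genes or 3.19% of 20234. Astroglia markers summed to 3505, 3693 and 3386 CPM in the Tead1/2 controls, to 3937, 3811 and 4155 in mutants 1 to 3 and to 3571 in mutant 4, so mutants 1 to 3 lay above the controls and mutant 4 among them, as for the muscle markers. Purkinje markers summed to 1422 to 1512 in controls and to 1571 to 1775 in the 4 mutants, without overlap. The part of these marker levels in the values of Yap1 and Wwtr1 was not tested. In these bulk libraries fewer cells of a type and less RNA per cell cannot be told apart.

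The difference between both mutant effects at P2 was tested itself, and 0 of the 5 members were called. For Yap1 it was −0.20 on the log2 scale (Insm1 effect minus Tead1/2 effect; 95% interval −0.46 to 0.05; edgeR adjusted p = 0.834), and for Vgll2 it was 3.47 with an interval from −0.74 to 7.68. Without Tead1/2 mutant 4 these were −0.26 (edgeR adjusted p = 0.721) and 3.15 (edgeR adjusted p = 0.747), and again 0 genes were called. This contrast called 0 of 20837 genes (0%), 1435 genes had an unadjusted p under 0.05, and DESeq2 called 14.

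At P7, summed over all kept cells of each library, all 5 cofactor genes rose in both kinds of mutant. For Yap1 the Insm1 controls had 28.1 and 27.8 CPM (of UMIs) and the mutants 55.5, 56.7 and 63.3, while the Tead1/2 controls had 25.2 and 21.5 and their mutants 51.5, 58.7 and 56.4. No control overlapped a mutant, and the rise was 2.01-fold for Insm1 (log2 1.01 ± 0.08, edgeR adjusted p = 8.26e-06) and 2.23-fold for Tead1/2 (log2 1.16 ± 0.08, edgeR adjusted p = 1.71e-06). Wwtr1 stood at 20.4 and 30.03 in the Insm1 controls, at 73.2, 71.7 and 94.6 in the Insm1 mutants, at 25.3 and 19.5 in the Tead1/2 controls and at 173, 199 and 160 CPM in the Tead1/2 mutants. Its rise was 3.05-fold (log2 1.61 ± 0.18, edgeR adjusted p = 0.000108) and 7.44-fold (log2 2.89 ± 0.20, edgeR adjusted p = 1.59e-06), and the 3 Tead1/2 mutants were the highest of the 10 libraries.

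The 3 vestigial-like genes rose by very different amounts. Vgll2 was counted 3 and 5 times in the Insm1 controls, 369, 309 and 289 times in their mutants, 3 times and once in the Tead1/2 controls, and 346, 950 and 427 times in their mutants. The log2 rises of 6.81 ± 0.33 and 7.69 ± 0.37 (edgeR adjusted p = 3.13e-07 and 1.43e-07) rest on those few control UMIs, so their size is loosely fixed. Vgll3 rose over all kept cells from 0.423 and 0.361 to 1.47, 1.36 and 1.64 CPM with Insm1 deleted (log2 1.86 ± 0.25) and from 0.538 and 0.356 to 4.33, 3.31 and 2.81 with Tead1/2 deleted (log2 2.85 ± 0.26). In cells with a score under 0.05 the Vgll3 rise for Insm1 was 1.16 (95% interval 0.57 to 1.74), and the Insm1 effect minus the Tead1/2 effect was −1.68 (−2.50 to −0.85; edgeR adjusted p = 0.0602). Vgll4 rose from 90.6 and 96.9 to 112, 110 and 120 CPM (log2 0.23 ± 0.05) and from 98.9 and 93.2 to 129, 134 and 130 (log2 0.36 ± 0.05). The Vgll4 call in the Insm1 comparison was lost without Insm1 control 1 (edgeR adjusted p = 0.0663). All 5 of 5 members were called in each comparison, against backgrounds of 33.4% of 24195 genes for Insm1 and 48.4% for Tead1/2. Groups did not overlap for any member, and the share of all genes without overlap was not counted.

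**Figure D2:**
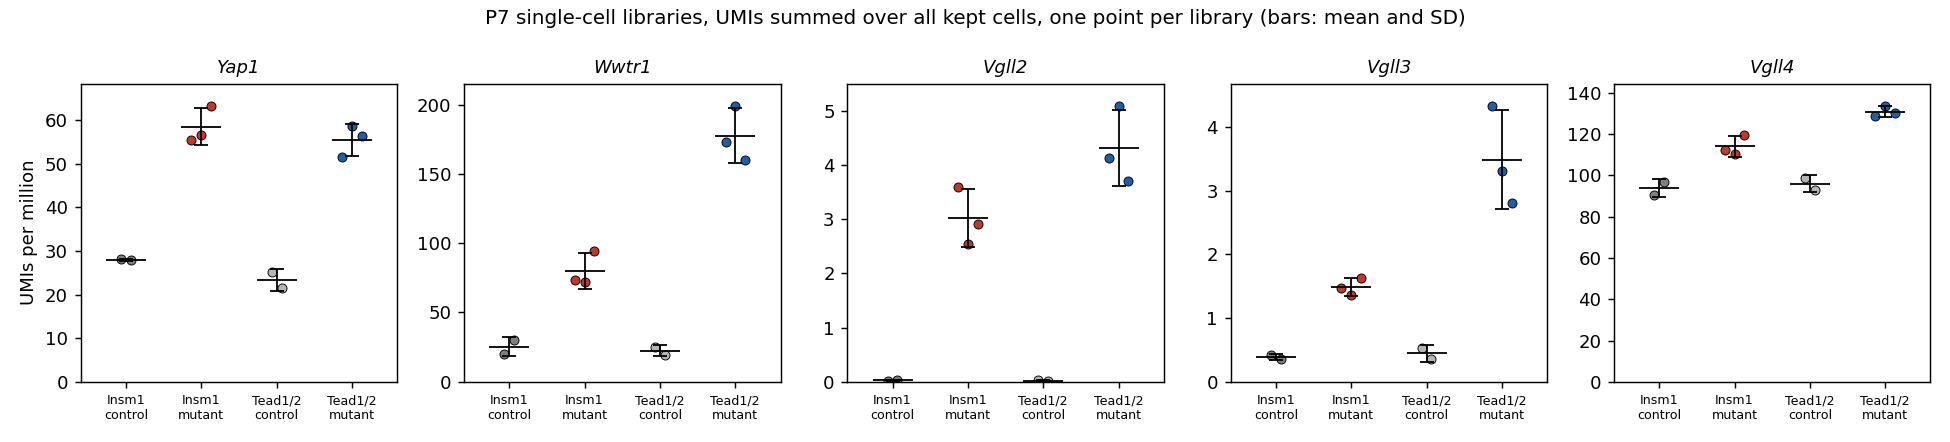
UMI CPM (y axis) of the 5 genes summed over all kept cells of 10 P7 libraries, by group (x axis); points are libraries, and lines and bars show the mean and SD. Every mutant library lies above both of its controls, and Wwtr1 reaches 160 to 199 in the Tead1/2 mutants against 71.7 to 94.6 in the Insm1 mutants.

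These sums mix cell types whose shares differed. The 24 skeletal muscle markers summed to 67.9 to 94.6 CPM in the 4 controls (1 of 24 at 0 in each), to 6398 to 7871 in the Insm1 mutants and to 15247 to 24274 in the Tead1/2 mutants (0 of 24 at 0). Meningeal fibroblast markers summed to 154 to 174 CPM in controls, 180 to 278 in Insm1 mutants and 239 to 517 in Tead1/2 mutants. Mural markers summed to 43.0 to 78.8 CPM in controls, 106 to 132 in Insm1 mutants and 171 to 188 in Tead1/2 mutants. Astroglia markers summed to 1128 and 1353 CPM in the Insm1 controls and 1457 to 1623 in the mutants, without overlap, and to 951 and 1091 against 1087 to 1313 for Tead1/2, with overlap. Granule progenitor markers were lower in mutants (3196 and 3352 against 2030 to 2211 for Insm1, 3418 and 3509 against 1705 to 1995 for Tead1/2). Granule neuron markers were lower too (7108 and 7777 against 5432 to 6393, and 7149 and 7838 against 3877 to 4395). Endothelial markers overlapped for Insm1 (64.6 and 109 against 82.1 to 146) and were higher without overlap for Tead1/2 (81.1 and 102 against 105 to 120). Further lists lay apart, among them unipolar brush cell markers (666 and 744 against 1044 to 1121 for Insm1, 512 and 554 against 735 to 801 for Tead1/2) and, for Insm1, microglia and macrophage markers (123 and 129 against 229 to 280). The part of these marker levels in the rise was not tested. After the skeletal muscle-like clusters and the unnamed clusters were left out, an alternative chosen after seeing the data, Yap1 was called as before (log2 1.04 in Insm1, edgeR adjusted p = 0.000175; 1.13 in Tead1/2, edgeR adjusted p = 9.00e-05). Wwtr1 then differed by 0.71 in the Insm1 mutants (edgeR adjusted p = 0.104) and rose by 1.29 in the Tead1/2 mutants (edgeR adjusted p = 0.00741). Vgll2 was still called in both, at 6.11 and 4.06. Cells carrying muscle markers remained among those left in: the markers summed to 1506 to 4914 CPM in GABAergic interneuron-like and 5926 to 13425 in ependymal and choroid plexus-like cells of mutants, against 62.5 to 150 and 77.0 to 89.5 in those of controls. These values thus do not describe cells free of muscle markers. Vgll3 (0.36 and 0.11) and Vgll4 (0.17 and 0.14) no longer were. Of the 5 members, 2 were then called in the Insm1 and 3 in the Tead1/2 comparison, against 20.3% and 34.6% of genes.

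The effect of both deletions on Wwtr1 differed from each other in the sums of all kept cells. The Insm1 effect minus the Tead1/2 effect was −1.29 ± 0.25 on the log2 scale (edgeR adjusted p = 0.0258), and 1 of 5 members was called where 3.42% of genes were. It was −0.58 without the muscle-like and unnamed clusters (edgeR adjusted p = 0.619). For the other members the difference was −0.15 for Yap1 (edgeR adjusted p = 0.479), −0.88 for Vgll2 (0.567), −0.99 for Vgll3 (0.153) and −0.13 for Vgll4 (0.36).

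Cells were grouped by the markers of each class, with the 5 cofactor genes left out of the clustering and of all marker lists. The levels by class below are from the 47642 of 76640 kept cells with a doublet score under 0.05, a limit set after the scores had been seen. Cells above it had a median of 19602 UMIs, against 5916 below it. The limit removed unequal parts of the groups. Granule progenitor-like cells went from 7131 to 4191 in Insm1 controls and from 4344 to 3818 in Insm1 mutants. For Tead1/2 they went from 6846 to 4389 in controls and from 5323 to 4808 in mutants. Cluster 3 fell from 37.05% to 12.38% of that class in Insm1 controls and from 26.91% to 13.35% in Tead1/2 controls. Classes are named for their markers as "-like". Purkinje-like and ependymal and choroid plexus-like cells and the unnamed clusters other than 14 and 20 are not described.

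Yap1 was highest in meningeal fibroblast-like cells (209 ± 29.8 CPM, SD over 10 libraries, range 168 to 261), then in endothelial-like (135 ± 30.2, 69.8 to 165, 9 libraries) and astroglia-like cells (101 ± 5.50, 93.9 to 112). Endothelial-like and astroglia-like levels overlapped across libraries. Skeletal muscle-like cells, found in the 6 mutant libraries, followed at 71.3 ± 8.04, and granule progenitor-like cells spread widely at 50.1 ± 23.8 (20.8 to 80.4), overlapping them. GABAergic interneuron-like cells (14.3 ± 3.97) and granule neuron-like cells (11.5 ± 8.49, 0.523 to 23.4) overlapped over all libraries. In the 4 controls, though, Yap1 in granule neuron-like cells (0.523 to 4.30) lay below every GABAergic interneuron-like value (8.12 to 20.6), and the overlap came from the mutants (11.002 to 23.4). The lowest levels were in oligodendrocyte lineage-like (4.26 ± 3.69) and microglia and macrophage-like cells (0.859 ± 1.20). The microglia and macrophage-like cells are used below as a rough measure of stray RNA, and their own expression of these genes was not tested.

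Wwtr1 followed another order. Endothelial-like cells had 972 ± 173 CPM (784 to 1330), far above skeletal muscle-like (389 ± 100, 263 to 504) and meningeal fibroblast-like cells (278 ± 45.7, 180 to 331), whose ranges overlapped. Astroglia-like cells stood at 128 ± 11.1 (115 to 144), and granule progenitor-like cells at 13.3 ± 8.11 (4.36 to 28.9). Granule neuron-like (1.96 ± 1.27), GABAergic interneuron-like (2.36 ± 1.92) and oligodendrocyte lineage-like cells (2.40 ± 1.39) lay at or below the microglia and macrophage-like cells (3.62 ± 2.18), so Wwtr1 in those classes as a whole was not above that stray level.

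Vgll2 was counted almost entirely in cells with muscle markers. It read 10.7 ± 2.29 CPM in skeletal muscle-like cells (7.83 to 12.9) and 31.6 ± 9.76 in cluster 20 (21.4 to 47.3), and at most 0.407 on average in any other class. In meningeal fibroblast-like and endothelial-like cells it had 0 UMIs. Cluster 20 held 1934 kept cells marked by 20 skeletal muscle genes, and it is unnamed because its leading genes, Rgr, Acta2 and Mettl21e among them, include a marker of mural cells. Vgll3 was highest in skeletal muscle-like cells (8.16 ± 2.76, 4.13 to 11.8), then in meningeal fibroblast-like (2.53 ± 2.57, 0 to 6.28) and cluster 20 cells (1.73 ± 0.385), and was 0.570 ± 0.217 in granule progenitor-like cells. Vgll4 was found in every class, from 288 ± 34.4 CPM in meningeal fibroblast-like, 222 ± 37.8 in endothelial-like, 193 ± 11.3 in astroglia-like and 163 ± 23.3 in microglia and macrophage-like cells to 120 ± 7.32 in granule progenitor-like, 90.3 ± 10.3 in GABAergic interneuron-like, 75.7 ± 12.7 in oligodendrocyte lineage-like and 51.7 ± 8.27 in granule neuron-like cells.

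**Figure D3:**
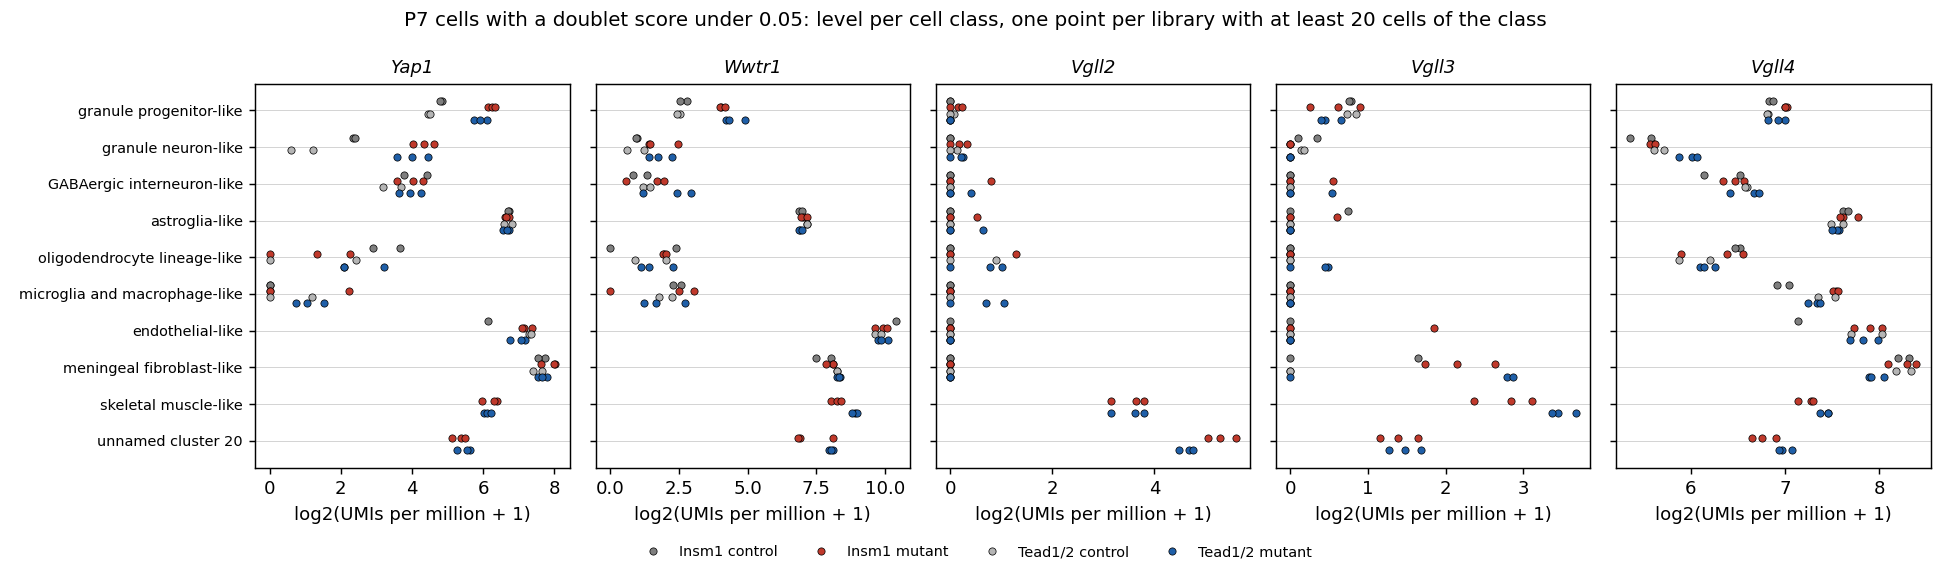
Level of each gene (x axis, log2 of CPM + 1) by cell class (y axis) in P7 cells with a doublet score under 0.05; points are libraries with at least 20 cells of the class, coloured by group. Wwtr1 peaks in endothelial-like cells, Vgll2 is confined in these classes to the skeletal muscle-like cells and unnamed cluster 20 apart from at most a few UMIs, and control and mutant points separate for Yap1 in granule progenitor-like and granule neuron-like cells.

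After each cell was thinned to 2000 UMIs, 80.3% of 452 endothelial-like cells had a Wwtr1 UMI, 23.9% had a Yap1 UMI and 19.9% had both. In meningeal fibroblast-like cells the shares were 41.2%, 31.9% and 13.6%, and in astroglia-like cells 21.4%, 17.7% and 3.92%. Among granule progenitor-like cells 8.26% had a Yap1 UMI, 2.13% a Wwtr1 UMI and 0.367% both. The background shares in microglia and macrophage-like cells were 0.164% for Yap1 and 0.818% for Wwtr1.

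Within granule progenitor-like cells, the dividing cells in which Atoh1Cre acts, both coactivator genes rose in both mutants. Yap1 read 27.5 and 26.5 CPM in the Insm1 controls and 69.6, 75.4 and 80.4 in the mutants, and 20.8 and 21.5 in the Tead1/2 controls against 52.0, 68.3 and 59.0 in the mutants. Every mutant was above every control of either allele. In all kept cells of the class the rise was 3.26-fold (log2 1.71 ± 0.11, edgeR adjusted p = 3.01e-07) and 3.14-fold (log2 1.65 ± 0.11, edgeR adjusted p = 2.91e-07), and at a doublet score under 0.05 both log2 values were 1.47. Wwtr1, lower throughout, read 5.91 and 4.84 in the Insm1 controls, 15.6, 15.1 and 17.1 in the Insm1 mutants, 4.85 and 4.36 in the Tead1/2 controls and 17.4, 28.9 and 18.9 CPM in the Tead1/2 mutants. Those CPM are at a doublet score under 0.05. Over all kept cells of the class Wwtr1 rose 3.28-fold in Insm1 mutants (log2 1.71 ± 0.20, edgeR adjusted p = 4.52e-05) and 5.39-fold in Tead1/2 mutants (log2 2.43 ± 0.20, edgeR adjusted p = 2.25e-06). The difference between those effects was not called for Wwtr1 (−0.72, edgeR adjusted p = 0.237) or Yap1 (0.05, edgeR adjusted p = 0.929).

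Vgll4 in granule progenitor-like cells read 113 and 117 CPM in the Insm1 controls and 127, 129 and 127 in the mutants, and 112 and 112 against 112, 127 and 121 for Tead1/2. It was called over all kept cells of the class (log2 0.35, edgeR adjusted p = 0.000911, and 0.19, edgeR adjusted p = 0.0379), but the Tead1/2 call was lost without Insm1 mutant 2 or 3 or Tead1/2 mutant 2 or 3 (edgeR adjusted p = 0.056, 0.0509, 0.107 and 0.0721), and neither was called at a doublet score under 0.05 (0.15, edgeR adjusted p = 0.16, and 0.07, edgeR adjusted p = 0.532). Vgll2 and Vgll3 were too low to be tested there, and no mutant library had more than 2 Vgll2 UMIs in cells of the granule lineage with a score under 0.05. Of the 3 members tested, 3 were called in each comparison, against 24.1% (Insm1) and 23.2% (Tead1/2) of genes. At the lower score limit 2 were, against 17.4% and 21.1%.

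The share of granule progenitor-like cells with a Yap1 UMI after thinning went from 5.09% in Insm1 controls to 13.6% in mutants and from 4.12% to 10.5% for Tead1/2. For Wwtr1 it went from 0.984% to 2.92% and from 0.834% to 3.68%, where the Wwtr1 background in microglia and macrophage-like cells was 0.439% to 1.35% in the 4 groups. The control shares of Wwtr1 were within that range and the mutant shares above it. Over all groups the Wwtr1 share was lower in granule neuron-like (0.286%) and GABAergic interneuron-like cells (0.291%) than in microglia and macrophage-like cells (0.818%). The level of stray RNA is thus not fixed by 1 class, and whether the control shares were stray RNA was not tested. Median depths of these progenitor groups were 5241 to 6558 UMIs, and those of the microglia and macrophage-like cells 3515 to 4594.

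The clusters that made up this class differed between groups. At a score under 0.05, control progenitor-like cells were in clusters 1, 2 and 3 apart from 3 cells of Insm1 controls (cluster 9) and 2 and 9 cells of Tead1/2 controls (clusters 5 and 9), whereas 47.2% of those of Insm1 mutants were in cluster 9 and 25.9% in cluster 5, and 47.7% of those of Tead1/2 mutants were in cluster 5. Yap1 averaged 88.2 CPM in cluster 5 and 81.2 in cluster 9. Cluster 1 held cells of all 10 libraries: there Yap1 read 16.8 and 16.0 in the Insm1 controls, 35.6, 40.1 and 36.2 in the Insm1 mutants, 15.2 and 14.8 in the Tead1/2 controls and 18.7, 20.4 and 17.9 in the Tead1/2 mutants. Within this shared cluster the Insm1 mutants were thus well above their controls and the Tead1/2 mutants slightly above theirs, values given as a description with no test. Cluster 14, found in all 10 libraries and unnamed because interneuron markers are among its leading genes although progenitor markers are its most numerous, gave 60.4 and 57.3 CPM of Yap1 with Insm1 intact against 65.1, 49.1 and 60.6 with it deleted, and 50.2 and 55.2 against 37.0, 45.6 and 60.2 for Tead1/2, and its groups overlapped.

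Granule neuron-like cells had less of both coactivator transcripts, and Yap1 rose there too. Yap1 read 4.09 and 4.30 CPM in the Insm1 controls and 19.2, 15.4 and 23.4 in the mutants, and 0.523 and 1.32 in the Tead1/2 controls against 15.1, 20.9 and 11.002 in the mutants. All 6 mutants were above all 4 controls. Over all kept cells of the class the rise was 6.58-fold (log2 2.72 ± 0.19, edgeR adjusted p = 8.94e-08) and 13.9-fold (log2 3.80 ± 0.25, edgeR adjusted p = 4.84e-08), and at the lower score limit log2 2.27 and 4.18. The Tead1/2 controls had 5 and 10 Yap1 UMIs at the lower limit, levels within those of microglia and macrophage-like cells, so the size of the Tead1/2 rise is loosely fixed. The difference between both effects, −1.08, was not called (edgeR adjusted p = 0.198). Different clusters made up this class in the 4 groups at the lower score limit. In the Insm1 controls 61.8% of its cells were in cluster 0 and 37.4% in cluster 12, whereas in the Insm1 mutants 50.3% were in cluster 10 and 28.3% in cluster 17. Cluster 0 held 75.1% of the class in Tead1/2 controls, and cluster 17 held 47.4% in Tead1/2 mutants.

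In granule neuron-like cells the Insm1 controls had 0.985 and 0.940 CPM of Wwtr1 and the mutants 1.70, 1.75 and 4.51, and the values were 1.36 and 0.53 against 1.66, 2.34 and 3.79 for Tead1/2. These lie near the stray level of microglia and macrophage-like cells. It was called over all kept cells of the class (log2 2.00, edgeR adjusted p = 0.000827, and 1.90, edgeR adjusted p = 0.00161) and not at a score under 0.05 (1.37, edgeR adjusted p = 0.0718, and 1.42, edgeR adjusted p = 0.0649). Vgll4 was called in both over all kept cells (0.42, edgeR adjusted p = 0.00289, and 0.45, edgeR adjusted p = 0.00238), and at the lower limit in Tead1/2 alone (0.23, edgeR adjusted p = 0.133, and 0.37, edgeR adjusted p = 0.0137). So 3 of 3 members tested were called in each comparison against 29.7% and 25.8% of genes, and at a score under 0.05 1 was in Insm1 and 2 were in Tead1/2, against 21.2% and 21.9%.

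Muscle markers moved with these results. In granule progenitor-like cells with a score under 0.05 the 24 muscle markers summed to 78.2 to 98.8 CPM in controls, 235 to 305 in Insm1 mutants and 357 to 864 in Tead1/2 mutants, and in granule neuron-like cells to 68.5 to 108, 141 to 165 and 234 to 516. They were also higher in mutant microglia and macrophage-like cells, the measure of stray RNA. There they summed to 91.9 to 224 in Tead1/2 controls and 341 to 997 in Tead1/2 mutants. For Insm1 they summed to 105 to 170 in controls and 167 to 214 in mutants, with overlap. How much of the rise in granule cells was stray RNA was not tested. Markers of astroglia, 1 of the classes rich in Yap1 and Wwtr1, summed to less in mutant than in control progenitor-like cells (243 to 364 against 401 to 505). Markers of endothelial cells (10.5 to 13.4 CPM in controls, 7.07 to 12.4 in mutants) and of meningeal fibroblasts (5.07 to 6.33 and 4.51 to 12.6) overlapped in those cells, while mural markers did not (3.96 to 5.38 and 10.2 to 26.4). The markers of the granule classes moved in them too, without overlap: granule progenitor markers summed to 5557 to 5839 CPM in controls and 4069 to 4810 in mutants, and granule neuron markers to 5250 to 5760 (controls) and 4218 to 4956 (mutants). In granule neuron-like cells progenitor markers were lower in mutants (584 to 767 against 804 to 932) and granule neuron markers higher (12832 to 14265 against 11793 to 12702). The part of these marker levels in the rise of Yap1, Wwtr1 and Vgll4 was not tested.

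**Figure D4:**
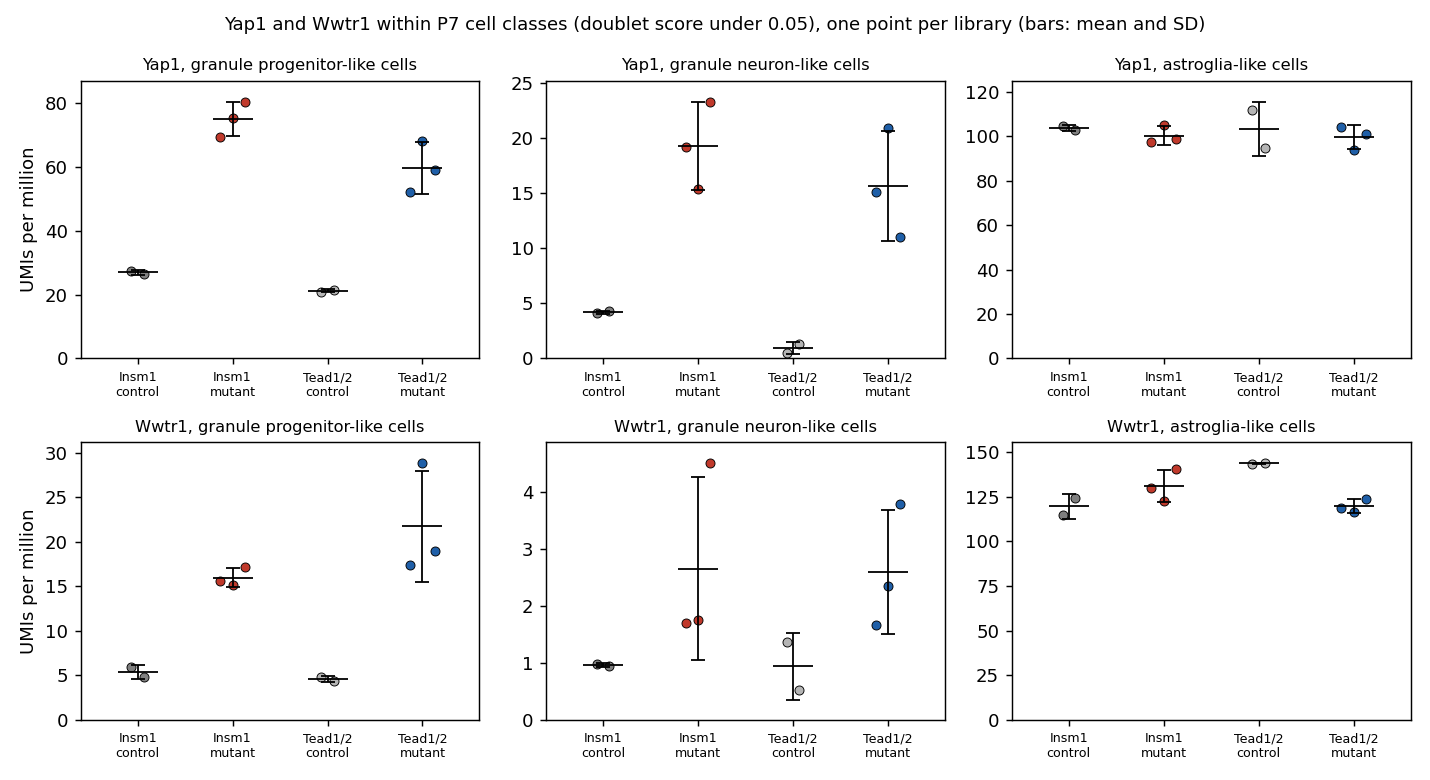
UMI CPM (y axis) of Yap1 (upper row) and Wwtr1 (lower row) by group (x axis) in granule progenitor-like, granule neuron-like and astroglia-like cells with a doublet score under 0.05; points are libraries, and lines and bars show the mean and SD. Mutants lie above controls in both granule classes, while Yap1 in astroglia-like cells stays between 93.9 and 112 in every library.

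Astroglia-like cells, which are outside the granule lineage, gave no call for either coactivator over all kept cells of the class. Yap1, at a score under 0.05, read 105 and 103 CPM in the Insm1 controls, 97.2, 105 and 98.6 in their mutants, 112 and 94.7 in the Tead1/2 controls and 104, 93.9 and 101 in theirs, with overlap. The log2 differences were −0.04 (95% interval −0.26 to 0.19) and −0.07 (−0.31 to 0.17). For Wwtr1 they were 0.08 (−0.13 to 0.29) and −0.13 (−0.34 to 0.09), and for Vgll4 0.02 and 0.05. By edgeR 0 of the 3 members tested were called in either comparison, and 0 had an unadjusted p under 0.05. Of all genes 0.516% and 2.15% were called, so counts among 3 members say nothing about the members. These differences and counts are over all kept cells of the class. Wwtr1 at a score under 0.05 read 143 and 144 CPM in the Tead1/2 controls and 119, 116 and 124 in the mutants, without overlap, and its log2 difference was −0.28 (95% interval −0.50 to −0.06; unadjusted p = 0.0243, edgeR adjusted p = 0.3). In the same cells the astroglia markers were lower in mutants (16362 and 18449 CPM against 14143 to 15622) and the muscle markers higher (82.4 and 85.7 against 210 to 341), neither with overlap, and their part was not tested. The Insm1 effect minus that effect was 0.38 (0.07 to 0.69; edgeR adjusted p = 0.821). With clusters drawn at a Leiden resolution of 2, Yap1 in the astroglia-like class read 1.10 and 0.90 and Wwtr1 1.24 and 0.96. All were called by edgeR, where 41.7% and 39.3% of genes were called, so this result depends on how the class was drawn. That class was a different set of cells. Its control cells numbered 1915 (Insm1) and 746 (Tead1/2), against 492 and 270 before, and its mutant cells 1689 and 1211, against 922 and 799. It included a cluster with a median of 18052 UMIs per cell, against 7647 in the main astroglia-like cluster before. The part of this makeup in the calls was not tested.

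In 4 other classes calls were made over all kept cells and not at the lower score limit. GABAergic interneuron-like cells gave Yap1 at 1.15 in Insm1 mutants (edgeR adjusted p = 0.00204) and 1.33 in Tead1/2 mutants (edgeR adjusted p = 0.000725), Wwtr1 at 2.12 and 2.88, and a call for Vgll2 in Tead1/2, against 27.2% and 26.4% of genes called. At a score under 0.05 Yap1 read −0.19 (95% interval −0.79 to 0.41) and 0.44 (−0.18 to 1.06), and neither was called, where edgeR called 0% of 10750 genes for Insm1 (661 at an unadjusted p under 0.05) and 0.688% for Tead1/2. The level of Yap1 at the lower limit was 20.6 and 12.8 CPM in Insm1 controls, 15.4, 18.9 and 10.99 in their mutants, 11.97 and 8.12 for Tead1/2 intact against 18.1, 14.3 and 11.5 for the deletion, with overlap. The muscle markers in this class summed to 1506 to 4914 CPM in mutants over all kept cells and to 108 to 1027 at the lower limit, with 60.6 to 150 in controls under either. The class was made up of clusters 6 and 16, with medians of 5305 and 19070 UMIs per cell. Over all kept cells cluster 16 held 11 to 18 cells in each control library and 201 to 474 in each mutant library. Cluster 6 held 282 to 418 and 220 to 423. The part of this makeup in the calls was not tested.

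In meningeal fibroblast-like cells Yap1 was called at 1.00 and 0.80 and Wwtr1 at 1.03 and 0.79 over all kept cells, where 14.2% and 21.5% of genes were called, and Vgll4 at 0.47 in Insm1 mutants. The meningeal fibroblast markers of the class rose with them, from 2377 and 3462 CPM to 4764 to 6740 for Insm1 and from 3587 and 4653 to 6114 to 8838 for Tead1/2. Muscle markers in it went from 66.8 to 98.4 in controls to 187 to 2786 in mutants, and granule neuron markers from 5060 to 5837 down to 1533 to 4041. Their part in these calls was not tested, and at a score under 0.05 the fibroblast markers overlapped (8756 to 12093 in controls, 9410 to 12045 in mutants). At a score under 0.05 Yap1 read 0.28 (−0.04 to 0.60) and 0.12 (−0.19 to 0.42), Wwtr1 0.27 and 0.06, and 0 members were called by edgeR, against 0.476% and 0.452% of genes. Vgll4 in Tead1/2 mutants of this class was not called under either limit, and its sign turned from 0.27 (0.05 to 0.49; edgeR adjusted p = 0.108) to −0.315 (−0.57 to −0.06; edgeR adjusted p = 0.412). In endothelial-like cells Yap1 was called in Insm1 mutants (0.63, edgeR adjusted p = 0.00652, 6.54% of genes called). Endothelial markers of the class went from 2115 and 2748 to 3485 to 3955 CPM in that comparison, muscle markers from 62.2 and 67.5 to 280 to 845 and granule neuron markers from 4344 and 5206 to 3147 to 3859, and their part in the call was not tested. In oligodendrocyte lineage-like cells Yap1 was called at 0.58 and 0.53 and Vgll4 at 0.25 in Tead1/2 mutants, against 19.7% and 27.5% of genes. With the dissection as a replicate block the Yap1 call in Tead1/2 mutants was lost. Muscle markers of the class went from 57.8 and 62.4 to 131 to 199 CPM for Insm1. For Tead1/2 they went from 64.3 and 73.0 to 227 to 617, and their part in the calls was not tested. At the lower score limit Yap1 could not be tested in either of these comparisons of oligodendrocyte lineage-like cells, or in the Insm1 comparison of endothelial-like cells, and Vgll4 in oligodendrocyte lineage-like cells of Tead1/2 mutants was not called (0.16, edgeR adjusted p = 0.964).

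Skeletal muscle-like cells were found almost entirely in mutants: at a score under 0.05 there were 955 in the Insm1 mutants, 2279 in the Tead1/2 mutants and 7 in the 4 controls. All 5 cofactor genes were present in them, and both mutant lines were compared with each other, so that line, deletion and cell makeup cannot be told apart. Wwtr1 read 263, 303 and 339 CPM in Insm1 mutants and 478, 504 and 447 in Tead1/2 mutants, without overlap. Over all kept cells it was 2.46-fold higher in the Tead1/2 line (log2 1.3 ± 0.07, edgeR adjusted p = 8.24e-05), and log2 0.80 at a score under 0.05 (edgeR adjusted p = 0.00172). Vgll3 read 4.13, 7.63 and 6.18 against 9.89, 11.8 and 9.36 and was also higher in the Tead1/2 line (1.31, edgeR adjusted p = 0.00401, and 0.90, edgeR adjusted p = 0.0293). Vgll4 was at 154, 140 and 156 against 165, 174 and 175 (0.32, edgeR adjusted p = 0.00295, and 0.34, edgeR adjusted p = 0.0166). The muscle markers of this skeletal muscle class moved in the same direction, from 12583 to 17259 CPM in Insm1 mutants to 34181 to 50326 in Tead1/2 mutants over all kept cells, and from 37487 to 47964 to 63623 to 75477 at a score under 0.05. Granule neuron markers in it ran the other way (4906 to 5122 against 2437 to 3017, and 1029 to 1251 against 400 to 593). Their part in these differences was not tested.

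Yap1 in skeletal muscle-like cells was at 82.2, 61.3 and 77.6 CPM in the Insm1 line and at 64.3, 68.3 and 73.8 in the Tead1/2 line. The groups overlapped, with a log2 difference of 0.01 (95% interval −0.07 to 0.10) over all kept cells. Vgll2 read 12.8, 7.93 and 11.5 against 7.83, 11.3 and 12.9, and was called over all kept cells (0.50, edgeR adjusted p = 0.0252; lost without Insm1 mutant 2 or 3 or Tead1/2 mutant 3, with edgeR adjusted p = 0.0901, 0.0956 and 0.0715) but not at the lower limit (0.16, 95% interval −0.32 to 0.64). Over all kept cells 4 of the 5 members were called, against 33.7% of genes, and 3 were at the lower limit, against 15.9%.

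The muscle-like class had parts in different proportions. Cluster 13, sarcomeric too and with a median of 49309 UMIs per cell, held 39.8% of all kept cells of the class in the Insm1 and 24.3% in the Tead1/2 line, and at a score under 0.05 it held 3.98% and 1.05%. At a score under 0.05 a Myog-led cluster (11) made up 65.8% of it in the Insm1 and 49.2% in the Tead1/2 line, and a cluster led by sarcomere genes such as Myh8 and Neb (8) 30.3% and 49.7%. Wwtr1 was low in the Myog-led cluster, at 29.9, 33.4 and 32.7 CPM in Insm1 and 81.9, 77.9 and 74.7 in Tead1/2 mutants, and high in the sarcomeric cluster, at 525, 492 and 580 against 555, 644 and 553. Those groups were thus apart in the first cluster and overlapped in the second.

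Vgll3 was also mainly in the sarcomeric cluster, at 7.01, 12.2 and 12.7 CPM in Insm1 and 11.6, 15.7 and 12.1 in Tead1/2 mutants. Vgll2 ran the other way in the Myog-led cluster, at 11.8, 5.99 and 10.6 in Insm1 against 3.84, 2.02 and 3.46 in Tead1/2 mutants. In cluster 20 it read 47.3, 32.1 and 38.2 against 24.6, 21.4 and 25.8. In both clusters every Insm1 mutant was above every Tead1/2 mutant for Vgll2. These values by cluster are a description with no test.

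**Figure D5:**
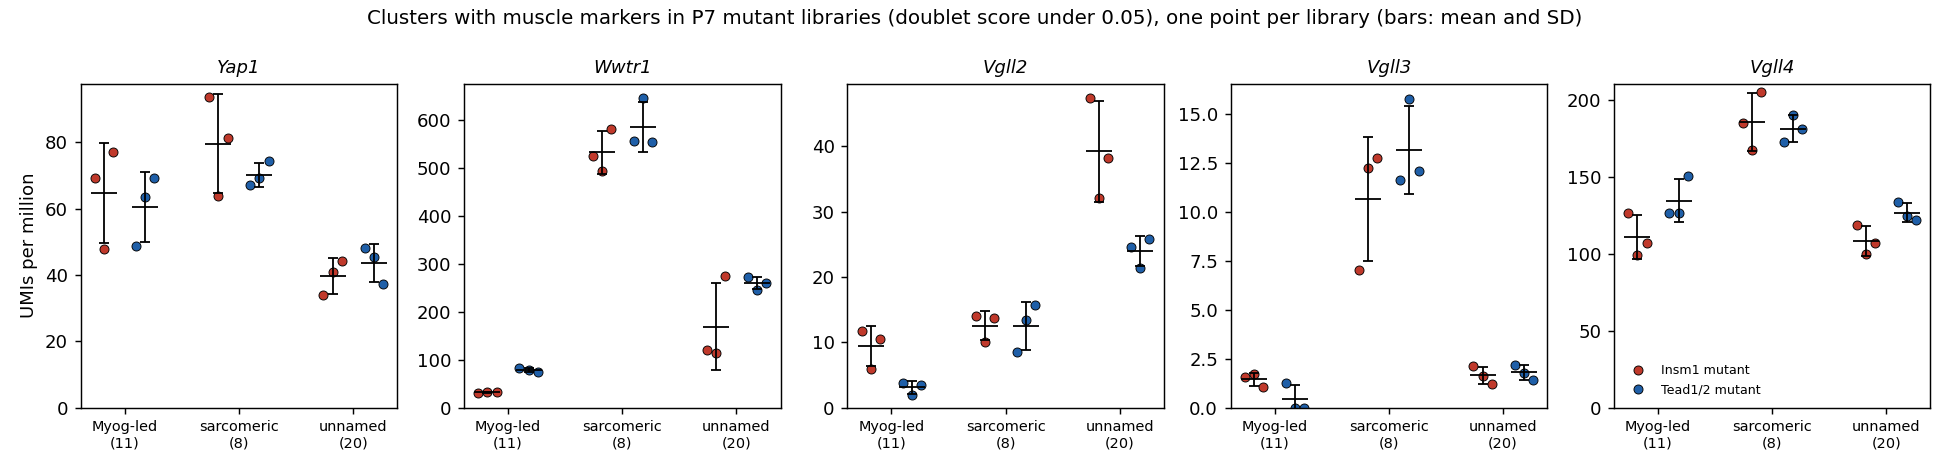
UMI CPM (y axis) of the 5 genes in 3 clusters with muscle markers (x axis: the Myog-led cluster 11, the sarcomeric cluster 8 and unnamed cluster 20) in mutant libraries, doublet score under 0.05; points are libraries, and lines and bars show the mean and SD. Wwtr1 and Vgll3 are highest in the sarcomeric cluster and Vgll2 in cluster 20, where Insm1 mutants lie at 32.1 to 47.3 and Tead1/2 mutants at 21.4 to 25.8.

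The other genes of the pathway were read from 3 lists. At P2, 0 of 24 Hippo kinases and regulators and 0 of 21 tested YAP and TAZ target genes were called by edgeR in either mutant with all libraries, where 0.689% (Insm1) and 0% (Tead1/2) of all genes were called, so these counts say nothing about the lists. Without Tead1/2 mutant 4 the count was 1 in each list, Amotl2, which both lists hold (0.51, edgeR adjusted p = 0.00909), against 3.19% of genes. DESeq2 called 0 of either list for Insm1 and 1 of each for Tead1/2, against 1.24% and 5.87% of genes. Tead4, the TEAD gene known for a role in muscle cells and one that was not deleted, read 1.13, 1.10, 1.18 and 0.805 CPM in the P2 Insm1 controls and 1.97, 2.23, 2.23 and 2.37 in the mutants, and rose by log2 1.06 (edgeR adjusted p = 0.018). In the P2 Tead1/2 libraries it read 0.852, 0.782 and 0.752 against 2.42, 2.55, 3.08 and 0.548, with mutant 4 below the controls (log2 1.42, edgeR adjusted p = 0.138; without mutant 4 1.71, edgeR adjusted p = 0.00111). Over all kept cells at P7 Tead4 rose from 1.31 and 1.55 to 40.5 to 45.3 CPM with Insm1 deleted and from 1.15 and 1.43 to 85.8 to 111 with Tead1/2 deleted. Vgll1, another vestigial-like gene, had 0 to 3 UMIs per P7 library.

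Of the 22 YAP and TAZ target genes, 15 rose and 2 fell over all kept cells in Insm1 mutants, with a median log2 difference of 0.79 against 0.03 for all genes tested. In Tead1/2 mutants 16 rose and 2 fell (median 1.13 against 0.06). The shares of all genes called were 33.4% and 48.4%. Without the muscle-like and unnamed clusters 8 of 21 tested targets rose and 1 fell in Insm1 mutants (median 0.57 against 0.01), and 14 rose and 1 fell in Tead1/2 mutants (median 0.79 against 0.03), where 20.3% and 34.6% of genes were called. The largest rises in the Tead1/2 mutants were Ankrd1 (log2 8.89), which encodes a muscle ankyrin repeat protein, Ccn2 (3.54), which encodes a secreted matricellular protein, and Myof (2.99), which encodes a membrane repair protein. In Insm1 mutants Ankrd1 rose by 4.22 and Ccn2 by 1.69. Ankrd1 had 1 and 0 UMIs in the Tead1/2 controls against 330, 467 and 247 in the mutants, and 2 and 1 in the Insm1 controls against 26, 32 and 7, so the size of its rise is loosely fixed. Of the 24 Hippo regulators, 9 rose and 3 fell in Insm1 mutants and 12 rose and 6 fell in Tead1/2 mutants, led by Amotl2 (1.57 and 1.52), an angiomotin that binds YAP. Without the muscle-like and unnamed clusters 6 of them rose and 1 fell for Insm1, and 10 rose and 2 fell for Tead1/2.

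Within granule progenitor-like cells 11 of 17 tested target genes rose and 1 fell in Insm1 mutants (median 0.87 against 0.02 for all genes), and 7 rose and 2 fell in Tead1/2 mutants (median 0.59 against 0.01). The shares of all genes called were 24.1% and 23.2%. The target counts at a score under 0.05 were 6 and 1, and 7 and 2, against 17.4% and 21.1% of genes. Ptpn14, a phosphatase that restrains YAP and is on both lists, rose by 1.75 and 1.76, and Myof by 1.63 and 2.90. Arhgef17 fell by 1.32 in Tead1/2 mutants, and its effect differed between the lines (2.22, edgeR adjusted p = 0.00112). Among 24 Hippo regulators 8 rose and 1 fell in each line. Fat4, an atypical cadherin upstream of Hippo kinases, rose by 2.07 and 2.61, Amotl2 by 1.26 and 1.45, and Wwc2, a scaffold of the LATS kinases, by 1.12 and 0.85. Tead4 rose there by 4.26 and 4.45.

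In granule neuron-like cells 6 of 13 tested target genes rose and 1 fell in Insm1 mutants (median 0.83 against 0.01), and 7 rose and 2 fell in Tead1/2 mutants (median 0.62), where 29.7% and 25.8% of all genes were called. With the score under 0.05, 4 rose and 2 fell in each line, against 21.2% and 21.9%. Wwc2 rose by 2.60 and 2.46 and the target Dock5 by 2.54 and 2.42. Tgfb2, a secreted growth factor, fell by 0.91 and Crim1 by 0.75 in Tead1/2 mutants. In astroglia-like cells, where 0.516% and 2.15% of all genes were called, 1 of 16 tested target genes fell in each comparison, Rbms3, by 0.53 and 0.54. By edgeR 0 of 24 Hippo regulators were called there, which is near those shares. In skeletal muscle-like cells 15 of 22 target genes were higher and 3 lower in the Tead1/2 than in the Insm1 line (median 0.56, where 33.7% of genes were called). Of 19 tested at a score under 0.05, 11 were higher and 0 lower, against 15.9% of genes. Ankrd1 over all kept cells of the class read 3.74 and Myof 2.33 higher on the log2 scale.

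The genes whose level across 11 classes of kept cells ran most like each cofactor were ranked among 16042 genes by Pearson's r of log2(CPM + 1), as a description over classes that share libraries and depth. For Yap1 these were Hes1 (0.97), a Notch effector of progenitors and glia, and Gulp1 (0.96), and for Wwtr1 they were led by Tnfrsf19 (0.95). Vgll2 was followed most closely by Lrtm1 (0.98) and Mir133b, the muscle microRNA gene, Vgll3 by Dlk1 (0.96) and Vgll4 by Bet1 (0.99). Yap1 and Wwtr1 had r = 0.91 with each other. In the cells with a score under 0.05, over 9 classes, 1 of the 5 closest genes of Yap1 and 2 of 5 of Vgll4 were again among the closest, and 0 of 5 of the other members, so these rankings depend on which cells enter.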

How the data were processed

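P2 values were expected counts per gene, which the authors deposited as RSEM tables. Per the submitters' processing notes, tools included Trim Galore, STAR 2.7.9a and RSEM 1.3.3 with build GRCm38.p6. They were rounded to whole numbers and spike-in entries were left out. P7 values were deposited by the authors as UMI counts per gene and cell, made by split-pool barcoding of fixed cells per the labels' protocols. The processing notes name Seurat 4.4.0, and the deposited gene table names GRCm39. P7 groups came from library names in the deposited cell metadata matched to the labels. The ATAC and CUT&RUN libraries among the 53 samples were not analysed here.

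Members and gene lists were chosen with earlier results of these data known. Barcodes passed (79838) if they reached 1000 UMIs and 500 genes and mitochondrial genes held less than 15% of the UMIs. The 4% of each library with the highest Scrublet score, 3198 cells, were removed. Cells were clustered with scanpy 1.11.5 (2000 variable genes, 30 components, 15 neighbours, Leiden resolution 1.0, members left out) and named by marker lists. UMIs were summed per library and class where a library had at least 20 cells of it.

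edgeR 4.0.16 quasi-likelihood tests compared mutants with controls of their own allele, and each effect with the other. At P2 each allele was fitted alone, apart from the test of the difference. At P7 the libraries of both alleles were in 1 fit with a shared spread (for muscle-like cells the mutants alone). Leaving out a library of 1 allele can therefore change a P7 call in the other. Intervals of 95% are the estimate ± the normal quantile times the SE. They take no account of the few degrees of freedom and are narrower than the tests imply, so calls rest on the tests alone. On simulated P2 data 44.78% of genes changed 1.5-fold, 88.06% changed 2-fold and 98.48% changed 4-fold were recovered for Insm1, over 19586 genes, and 58.21%, 73.13% and 98.48% for Tead1/2, over 20352. For all kept P7 cells the shares at those folds were 32.84%, 73.13% and 93.94% for Insm1 (23306 genes) and 35.82%, 58.21% and 95.45% for Tead1/2 (23453). In granule progenitor-like cells 64.18% (Insm1, 15036 genes) and 47.76% (Tead1/2, 15541) of 1.5-fold changes were recovered, and in granule neuron-like cells 53.73% (14449) and 43.28% (13747). The P7 simulations fitted the libraries of 1 allele alone, unlike the P7 tests, so their shares do not measure those tests directly. Changed genes were drawn only above a minimum mean count, so no share covers low-count genes. Named genes were the 5 members, the deleted genes, up to 5 called genes per pathway list and comparison with the largest change, and the 5 genes most like each member. Tead4, Vgll1 and leading genes of clusters fall partly outside this rule. Alternatives were DESeq2 1.42.0, no low-count filter, a replicate block, leaving out each library, other clusterings and other doublet limits. Within P7 cell classes DESeq2 and the fit with no filter were not run. A contrast there needed 2 libraries in each group, so neither of the 2 controls of the tested allele was ever left out. The doublet score under 0.05, the sums without muscle-like and unnamed clusters and the exact permutation test of Vgll2 were chosen after seeing the data. Giving P2 results without Tead1/2 mutant 4 also rests on these data, since earlier results had shown that it lacked the muscle transcripts of the other mutants. Calls made only without that library depend on this choice.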

Additional observations from a re-analysis of the deposited data

Results flagged for a closer look

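The difference between both mutant effects on Wwtr1, summed over all kept P7 cells, was −1.286 on the log2 scale (Insm1 effect minus Tead1/2 effect, edgeR adjusted p = 0.0258), and it was singled out because the test of the difference itself passed the threshold. All 3 Insm1 mutants were above their 2 controls and all 3 Tead1/2 mutants above theirs, with the larger rise in the Tead1/2 line. It was −0.64 at a doublet score under 0.05 (edgeR adjusted p = 0.23) and −0.58 without the muscle-like and unnamed clusters (edgeR adjusted p = 0.619).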

How the results depend on the processing

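At P2, Yap1 in Tead1/2 mutants was called with DESeq2 (0.30, adjusted p = 0.0223) and with no low-count filter (0.31), and lay between 0.258 and 0.355 when each library was left out. With the number as a replicate block it read 0.36 (edgeR adjusted p = 0.059). Same-numbered libraries did not deviate together (correlations from −0.13 to 0.28, and 1 number correlated best with its own). The replicate block gave 64 called genes for Insm1 and 236 for Tead1/2. Genes called at P2 numbered 308 with DESeq2, 212 with no filter and 64 to 132 without single libraries for Insm1 (135), and 1005, 1287 and 0 to 646 for Tead1/2 (0), with 4 when all 15 libraries were in 1 fit. For the difference (0) they numbered 14, 11 and 0 to 8.

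Over all kept cells at P7, without muscle-like and unnamed clusters, Wwtr1 read 0.71, Vgll3 0.36 and Vgll4 0.17 for Insm1, and Vgll3 0.11 and Vgll4 0.14 for Tead1/2. Vgll4 for Insm1 ran from 0.181 to 0.247 without single libraries. Genes called numbered 5362 with Scrublet's own threshold and 4415 without those clusters for Insm1 (8080), and 7533 without them for Tead1/2 (11720). For the difference (828) they numbered 2067 with DESeq2, 26 without those clusters and 95 to 1213 without single libraries.

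In granule neuron-like cells at a score under 0.05, Wwtr1 read 1.37 and Vgll4 0.23 for Insm1 and Wwtr1 1.42 for Tead1/2. With Scrublet's own threshold Vgll4 read 0.32 for Insm1, and Wwtr1 1.13 and Vgll4 0.38 for Tead1/2. In granule progenitor-like cells Vgll4 read 0.15, 0.17 and 0.18 for Insm1 (score under 0.05, Scrublet's own threshold, Leiden resolution 2). For Tead1/2 it read 0.069, 0.13, 0.13 and 0.11 (score under 0.05, Scrublet's own threshold, Leiden 0.5, Leiden 2) and 0.165 to 0.197 without single libraries, with the call lost in 4 of 8 such fits.

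In muscle-like cells Scrublet's own threshold gave Wwtr1 1.18, Vgll2 0.31, Vgll3 1.076 and Vgll4 0.58. Vgll2 read 0.16 at a score under 0.05 and 0.412 to 0.664 without single libraries. Its call was lost in 3 of the fits that left out an Insm1 mutant (3 libraries) or a Tead1/2 mutant (3 libraries). Controls were not part of this comparison, so fits without a control repeated the main fit. Signs reversed for Yap1 in GABAergic interneuron-like cells for Insm1 (−0.19 at a score under 0.05, −0.10 at Leiden 0.5), for Yap1 (1.10 and 0.90) and, in Tead1/2, Wwtr1 (0.96) in astroglia-like cells at Leiden 2, and for Yap1 (−0.12) and Vgll4 (−0.22) in fibroblast-like cells for Insm1 with Scrublet's own threshold. Vgll4 in fibroblast-like cells of Tead1/2 mutants, uncalled throughout, went from 0.27 to −0.315 at a score under 0.05 and to −0.04 with Scrublet's own threshold. That threshold marked 33.2% of cells, and 0% in 3 libraries. The dissection as a replicate block ended 1 call described here, Yap1 in oligodendrocyte lineage-like cells of Tead1/2 mutants (0.49, edgeR adjusted p = 0.0524). The causes were not tested. Vgll2 and Vgll3 had too few UMIs in granule progenitor-like cells to be tested.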
